A study of Mus musculus with 21 samples.

Results

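The IL-1 family genes described here are 10 named genes of the colon. They are the ligands Il1a, Il1b, Il18 and Il33, the antagonist Il1rn, and the receptors Il1r1, Il1r2, Il1rl1, Il1rap and Il18r1. They were chosen by name, and all 10 have probes on both array designs, with 21 probes among 56605 at day 0 and 15 among 55681 at day 7. A gene was read from its brightest probe of the day, and Il1rl1 from all of its 3 probes. A probe was tested where 60% or more of a label's arrays detected it, which left 16 member probes of 9 genes at day 0 and 12 probes of 9 genes at day 7. Il1a was the gene left untested on both days.

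The arrays measured RNA of whole colon from male germ-free (GF) C57BL/6J mice, which carry no microbes, so that every group shares the absence of a microbiota. The labels give 7 GF Card9-/- and 6 GF WT arrays at day 0, before dextran sulfate sodium (DSS) was given, and 4 GF Card9-/- and 4 GF WT arrays at day 7 of 2% DSS in the drinking water. Card9 encodes an adaptor of pattern recognition receptors, and DSS injures the colon epithelium and causes colitis. The labels give no age, and they number the arrays without saying that each is a separate mouse, so p-values measure the spread between these arrays. The comparison asks whether the Card9 genotype alters colon expression without a microbiota. Days were never compared with each other within a label, since each day has its own array design and day and design cannot be told apart.

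IL-1 family cytokines signal through paired receptor chains that recruit Myd88 and activate NF-kB. IL-1α and IL-1β bind IL-1R1, IL-18 binds IL-18R1, and IL-33 binds ST2, the product of Il1rl1. Il1rap encodes the accessory chain shared by the IL-1 and IL-33 receptors. Signalling is restrained by the receptor antagonist Il1rn, by the decoy receptor Il1r2 and by soluble ST2, which is made from a shorter Il1rl1 transcript. In the colon, IL-18 is made largely by epithelial cells, IL-33 is released as an alarm signal by damaged stromal and epithelial cells, and IL-1β comes mainly from myeloid cells.

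The Card9 probes went against the labels. At day 0 the brighter Card9 probe averaged 8.90 ± 0.20 (SD, n = 7) in log2 signal in the arrays labelled Card9-/- and 2.32 ± 0.01 (SD, n = 6) in those labelled WT, and it was well above background in 7 of 7 against 0 of 6. At day 7 the arrays labelled Card9-/- lay between 7.93 and 8.57. Of those labelled WT, replicate 1 reached 7.85 and the others were at most 2.41. Whether the probes lie in the deleted part was not tested. Every difference below is therefore between arrays labelled Card9-/- and arrays labelled WT, in that order, and it has no sign for the gene itself.

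The probes that the results turn on are shown by their first 30 of 60 bases, since the values below rest on them. Positions are those of the files' annotation on mouse build mm9 (NCBI37), and exons or UTRs were not looked up in it. The Il1rl1 probe for the soluble form (A_51_P339793) lies at chr1:40504769-40504828 on the plus strand. Both probes for the membrane form lie downstream on the same strand, A_55_P2027737 at chr1:40522187-40522246 and A_55_P2027731 at chr1:40520014-40520073. The Il33 probe lies at chr19:30035101-30035160 on the plus strand and the Il1b probe at chr2:129190347-129190406 on the minus strand.
Il1rl1 soluble form, A_51_P339793: ctctgtaacaggatcttttgtctagatttc
Il1rl1 membrane form, A_55_P2027737: gccattgactccttgtgtgttttcttcatg
Il1rl1 membrane form, A_55_P2027731: ccttacccaaattgccattacagtcgagca
Il33, A_55_P1964960: gtgaatctgtacgatatctttaaagtagta
Il1b, A_51_P212782: aggttcctataatatggatgagaattttta

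No member passed the threshold of an adjusted p of 0.05 at either day (limma, Benjamini-Hochberg over all probes tested). At day 0, 0 of 16 member probes were called against 0.0253% of all 47410 probes tested, and at day 7, 0 of 12 against 0% of 44632. At an unadjusted p under 0.05, 1 of 16 member probes passed at day 0, beside 5.84% of all probes, and 0 of 12 at day 7, beside 3.39%. The labels separated without overlap for 0 member probes on either day, beside 0.458% of all probes at day 0 and 2.12% at day 7. Over the brightest probes, 4 genes were higher and 5 lower at day 0, with a median log2 difference of -0.04 beside 0.02 over all probes tested. At day 7, 6 were higher and 3 lower, with a median of 0.11 beside 0.00. The smallest p that the exact permutation test can give at day 7 is 0.0286.

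**Figure D1:**
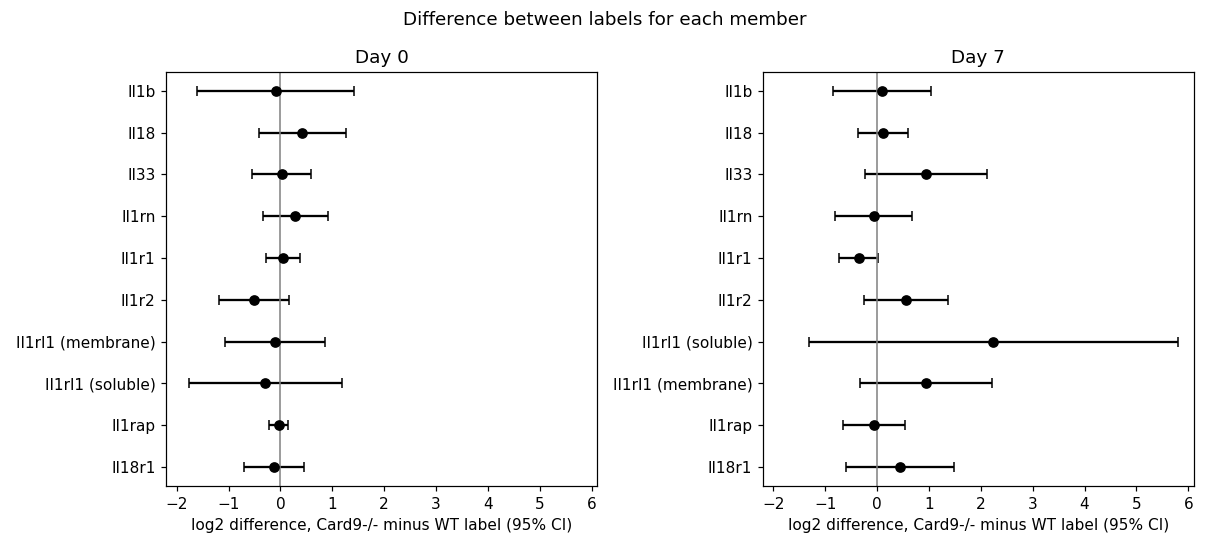
Log2 difference (arrays labelled Card9-/- minus arrays labelled WT) of each member's brightest probe and of both tested Il1rl1 probes, at day 0 (7 against 6 arrays) and day 7 (4 against 4). Points are limma estimates and bars 95% confidence intervals, and every interval spans 0.

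Among the ligands, Il33 had the widest gap between labels at day 7. Its log2 signal was 6.98, 6.49, 8.24 and 8.55 in the arrays labelled Card9-/- 2, 2.1, 4 and 6, and 6.06, 6.38, 7.07 and 6.97 in those labelled WT 1, 4, 5 and 6. Card9-/- 4 and 6 lay above every WT array, and Card9-/- 2 and 2.1 lay within the WT range. The difference was 0.94 (95% interval -0.23 to 2.12), a fold of 1.92, with an adjusted p of 0.913 (limma) and an exact permutation p of 0.143. On the 2 slides that held both labels, Il33 differed by 0.00 and 0.10, and without Card9-/- 6 the difference over all slides was 0.61. At day 0, Il33 ran from 6.55 through a median of 7.02 to 7.96 in the arrays labelled Card9-/- and from 6.35 through 7.01 to 7.81 in those labelled WT. The ranges nearly coincided, and the difference was 0.02 (-0.55 to 0.59).

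Il1b, the gene of IL-1β, was similar in both labels at day 7. The arrays labelled Card9-/- 2, 2.1, 4 and 6 read 6.11, 5.90, 7.26 and 6.94, and those labelled WT 1, 4, 5 and 6 read 5.67, 7.11, 6.58 and 6.49. WT 1 was the lowest array and the only one not well above background, and both ranges overlapped over most of their length. The difference was 0.09 (-0.86 to 1.04), which bounds the fold between 0.551 and 2.05, with an adjusted p of 0.995 (limma). It was -0.18 without WT 1, and it was -0.38 and -1.21 on the 2 slides with both labels. At day 0, Il1b ran from 2.80 through 5.26 to 6.56 in the arrays labelled Card9-/- and from 2.65 through 5.85 to 6.64 in those labelled WT. Card9-/- 7 and WT 5 stood far below the rest, at values that Feature Extraction puts in place of a signal at background. The difference was -0.09 (-1.61 to 1.43).

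Il18 was bright and well above background on every array. At day 7 it lay at 13.49, 12.90, 13.26 and 13.34 in Card9-/- 2, 2.1, 4 and 6, and at 13.60, 12.88, 13.15 and 12.91 in WT 1, 4, 5 and 6. All 8 arrays fell within 0.72 log2 units, and the difference was 0.11 (-0.37 to 0.59, adjusted p = 0.954, limma), or 0.58 and 0.02 within the 2 slides with both labels. It was 0.03 without WT 4 and 0.26 without WT 1. At day 0 the gene was read from another probe. It ran from 12.50 through 13.12 to 14.04 in the arrays labelled Card9-/- and from 10.96 through 12.89 to 13.59 in those labelled WT. WT 6 was the low array, and Card9-/- 5 from the same slide the high one. The difference was 0.42 (-0.42 to 1.26), and it fell to 0.07 without WT 6. The colon marker sum ran opposite to Il18 in rank at day 0 (rho = -0.94, r = -0.58, 13 arrays). It was highest in WT 6, at 698288, and lowest in WT 2 and Card9-/- 5, at 79146 and 282098, and its part in the Il18 difference was not tested. Il1a, the other IL-1R1 ligand, rose well above background on none of the 21 arrays, so no difference between labels was read from it.

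**Figure D2:**
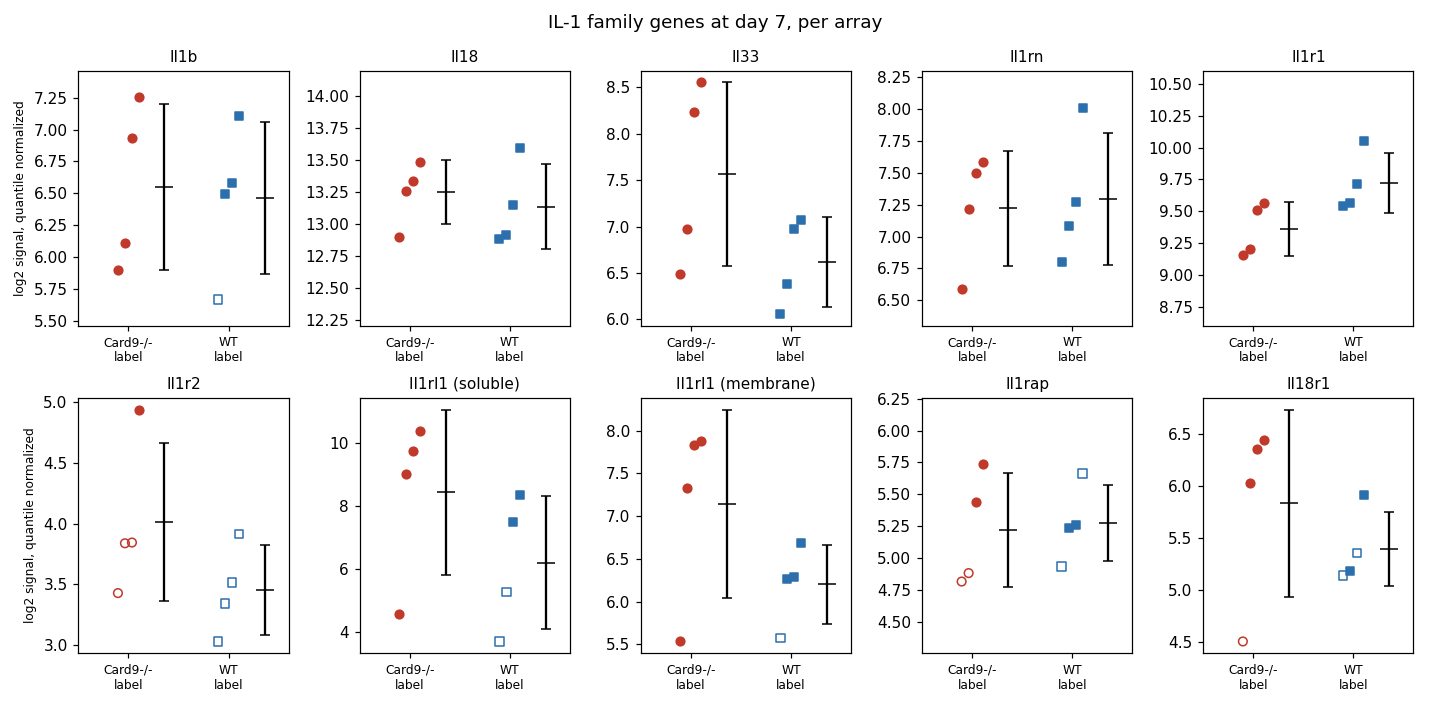
Quantile-normalized log2 signal at day 7 for the brightest probe of each tested member and both tested Il1rl1 probes. Each point is 1 array (4 per label), open points were not well above background, and bars are mean ± SD. The labels overlap in every panel, and the soluble Il1rl1 form spans 3.69 to 10.39. Each panel has its own axis, and levels of different probes are not comparable.

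Il1rl1 varied most among the members at day 7. The soluble-form probe read 4.58, 10.39, 9.75 and 9.03 in the arrays labelled Card9-/- 2, 2.1, 4 and 6, and 5.27, 7.50, 3.69 and 8.34 in WT 1, 4, 5 and 6. Card9-/- 2.1, 4 and 6 lay above every WT array, but Card9-/- 2 lay below all WT arrays save WT 5. WT 1 and WT 5 were not well above background, which left 2 of 4 WT arrays and 4 of 4 Card9-/- arrays that were. The difference was 2.24 (-1.32 to 5.79), a fold of 4.72 with an interval from 0.401 to 55.5 that takes those dim values as read, and it had an adjusted p of 0.913 (limma) and an exact permutation p of 0.200. On the 2 slides with both labels it was -3.76 and 2.89, so its sign turned between slides. Leaving out Card9-/- 2 raised it to 3.52, leaving out WT 5 lowered it to 1.40, and leaving out both Card9-/- 2.1 and 6 lowered it to 0.97.

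The membrane-form probe A_55_P2027737 followed the same arrays at day 7. It read 5.53, 7.88, 7.83 and 7.33 in Card9-/- 2, 2.1, 4 and 6, and 5.57, 6.26, 6.29 and 6.68 in WT 1, 4, 5 and 6. WT 1 was not well above background. Card9-/- 2 was again low and the other Card9-/- arrays were above every WT array. The difference was 0.94 (-0.33 to 2.21), with an adjusted p of 0.913 (limma) and an exact permutation p of 0.200. It was -1.15 and 1.62 on the 2 slides with both labels, and 1.48 without Card9-/- 2. Over the 8 arrays the soluble and membrane probes had a Pearson r of 0.877 and a Spearman rho of 0.857, given as a description, since each array supplies both values. Over the 13 arrays of day 0 these were 0.534 and 0.473. The other membrane-form probe, A_55_P2027731, rose well above background on 0 arrays of either day.

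**Figure D3:**
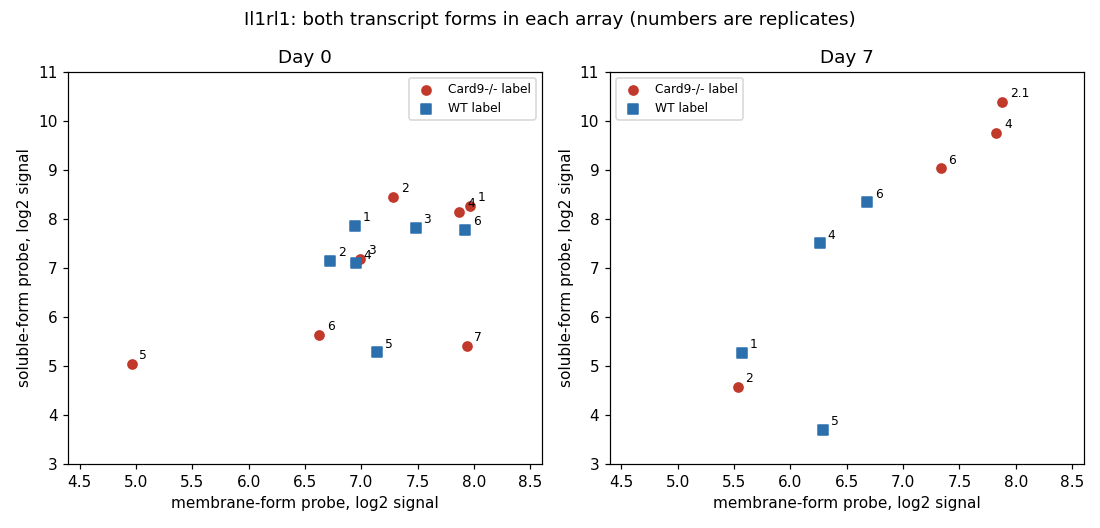
Log2 signal of the soluble-form probe (vertical axis) against the membrane-form probe (horizontal axis) of Il1rl1, 1 point per array with its replicate number, at day 0 (13 arrays) and day 7 (8 arrays). At day 7 Card9-/- 2, WT 1 and WT 5 lie low in the soluble form, and at day 0 Card9-/- 5, 6 and 7 and WT 5 are low in the soluble form, and of these Card9-/- 5 is also low in the membrane form.

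At day 0 the soluble form ran from 5.04 through 7.19 to 8.45 in the arrays labelled Card9-/- and from 5.28 through 7.47 to 7.86 in those labelled WT. Card9-/- 5, 6 and 7 and WT 5 read between 5.04 and 5.63, and the other 9 arrays read at least 7.10. The smooth muscle and fibroblast lists had the highest Pearson correlations with the soluble form at day 0 (r = 0.77 and 0.76, 13 arrays), and the adipocyte list had 0.13. In these 4 arrays the smooth muscle sum was between 17902 and 50635 and the fibroblast sum between 13847 and 33837. The smooth muscle sum reached 224135 and the fibroblast sum 128505 on other arrays, and WT 6, which was not low in the soluble form, had 35340 and 32695. All markers of both lists were well above background on every array, and their part in the Il1rl1 levels was not tested. The membrane form ran from 4.96 through 7.28 to 7.96 and from 6.72 through 7.05 to 7.92, and only Card9-/- 5 stood low in it. The adipocyte list had the highest Pearson correlation with the membrane form at day 0 (r = 0.58). The differences were -0.29 (-1.76 to 1.18) for the soluble and -0.10 (-1.07 to 0.86) for the membrane form.

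Adipocyte and other markers moved with the soluble form of Il1rl1 at day 7. Of 15 cell type lists, the summed adipocyte signal (Adipoq, Plin1 and Cidec) had the highest Pearson correlation with the soluble form, with r = 0.93 (rho = 0.90) over 8 arrays, and it is shown for that reason. The eosinophil list had the highest Spearman rho, at 0.93. With the membrane form (A_55_P2027737) the colon list had the highest Pearson r, at 0.82. The adipocyte list had 0.74 with that form, the eosinophil list 0.54 and the epithelium list 0.53. The adipocyte sum was 2233, 15145, 5938 and 5291 in Card9-/- 2, 2.1, 4 and 6 and 1125, 2956, 531 and 7206 in WT 1, 4, 5 and 6. Adipocyte markers were well above background on every day 7 array, 3 of 3. Cidec held 47.2% and Adipoq 46.1% of their sum in the median array. With the soluble form, the colon, epithelium, eosinophil and mast cell lists had r between 0.83 and 0.84. The regulatory T cell list had the lowest at -0.75. Of the eosinophil markers, Ccr3, Epx and Prg2 were well above background on 0 arrays. The same held for Ms4a2 of the mast cell markers and Ctla4 of the regulatory T cell markers. Kit, which cells other than mast cells also express, held 86.2% of the mast cell sum in the median array. Card9-/- 6 also held a pancreas marker signal of 485043, against at most 31028 on the other day 7 arrays. The part of these cell types in the Il1rl1 spread was not tested. In whole tissue, fewer cells of a type and less RNA per cell cannot be told apart.

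The sequences upstream of Il1rl1 are shown because its forms are known to start from separate promoters and differ between cell types. RefSeq (build GRCm38.p6, whose positions are not those of mm9) gives windows of 250 bases before the start at chr1:40429320-40429569 and chr1:40439379-40439628, both on the plus strand. Of 4 motifs searched on both strands, the GATA motif AGATAA was in 2 of 17 member windows, and those are the windows of Il1rl1. It is in capitals below, as TTATCT where it lies on the other strand, and 9.99% of all 32851 windows of this length hold it. The AP-1 motif TGANTCA was in 2 member windows (6.75% of all), the NF-kB motif in 5 (45.8%) and the C/EBP motif TTGCGCAA in 0 (0.164%). Neither Il1rl1 window held any of the other 3 motifs. A match is a description of the letters only.
Il1rl1 distal start: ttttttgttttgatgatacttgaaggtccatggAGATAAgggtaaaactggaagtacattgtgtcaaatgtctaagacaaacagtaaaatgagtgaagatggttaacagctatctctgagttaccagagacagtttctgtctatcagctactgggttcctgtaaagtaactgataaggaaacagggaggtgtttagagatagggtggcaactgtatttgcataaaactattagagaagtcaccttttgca
Il1rl1 proximal start: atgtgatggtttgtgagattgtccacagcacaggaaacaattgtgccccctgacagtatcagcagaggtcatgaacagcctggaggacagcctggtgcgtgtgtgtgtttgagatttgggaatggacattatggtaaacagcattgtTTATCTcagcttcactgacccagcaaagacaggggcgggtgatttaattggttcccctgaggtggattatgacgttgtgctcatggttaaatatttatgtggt

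Il1rn, the receptor antagonist, was well above background on every array. At day 7 it read 7.50, 7.58, 6.59 and 7.22 in Card9-/- 2, 2.1, 4 and 6 and 7.27, 7.08, 8.01 and 6.80 in WT 1, 4, 5 and 6. Card9-/- 4 lay below every WT array and WT 5 above every Card9-/- array, with the other 6 arrays between them and a difference of -0.07 (-0.82 to 0.68). On both slides that held both labels the array labelled Card9-/- was the higher, by 0.70 and 0.50, and without WT 5 the difference was 0.17. At day 0 another probe of the gene was brighter. It ran from 9.98 through 10.30 to 11.82 in the arrays labelled Card9-/- and from 9.91 through 10.24 to 10.71 in those labelled WT, with a difference of 0.29 (-0.34 to 0.92). Card9-/- 5 was the highest array, and without it the difference was 0.08.

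Il1r1, the signalling receptor for IL-1, was the member nearest to a separation of labels at day 7. It read 9.51, 9.16, 9.57 and 9.21 in Card9-/- 2, 2.1, 4 and 6 and 9.54, 9.57, 10.05 and 9.72 in WT 1, 4, 5 and 6. Only Card9-/- 4 overlapped with the WT arrays. It lay above WT 1 alone, which is the WT array that had a high Card9 signal. The difference was -0.36 (-0.74 to 0.03), a fold of 0.780, with an exact permutation p of 0.0571 and an adjusted p of 0.913 (limma). It was lower in the array labelled Card9-/- on both slides that held both labels, by -0.20 and -0.41. At day 0 Il1r1 ran from 9.35 through 9.76 to 10.18 and from 9.39 through 9.76 to 9.85, and the difference was 0.04 (-0.28 to 0.37). Smooth muscle markers moved with Il1r1 at day 0 (r = 0.88, 13 arrays) and epithelium markers opposite to it at day 7 (r = -0.81, rho = -0.55, 8 arrays). The epithelium sum at day 7 was 302254 to 419106 in the arrays labelled Card9-/- and 243309 to 368787 in those labelled WT, and its part was not tested.

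Il1r2, the decoy receptor, held the 1 of 16 member probes with an unadjusted limma p under 0.05 at day 0, beside 5.84% of all probes tested. That probe, A_52_P417890, was not the brightest of the gene. Its brightest probe ran from 4.48 through 5.25 to 5.85 in the arrays labelled Card9-/- and from 4.43 through 5.99 to 6.36 in those labelled WT. The difference was -0.51 (-1.18 to 0.17), with an adjusted p of 0.912 (limma) and an exact permutation p of 0.147. It was -0.77 without WT 5 and -0.38 without Card9-/- 7. With another background correction it was -0.20, and in the deposited log2 table -0.30. It was below 0 on 4 of 4 slides, from -1.59 to -0.03, whereas the differences of the other members turned sign between the day 0 slides. Its other probe, A_52_P417890, differed by -0.97 (-1.68 to -0.27), with an exact permutation p of 0.0221 and an adjusted p of 0.626 (limma), but none of its arrays was well above background. The macrophage marker sum moved with the brightest Il1r2 probe at day 0 (r = 0.89, rho = 0.86, 13 arrays), and its median was 7093 in the arrays labelled Card9-/- and 11757 in those labelled WT. Its part in the Il1r2 difference was not tested. At day 7 Il1r2 was read from a further probe, well above background in Card9-/- 6 alone, and its difference of 0.56 (-0.25 to 1.37) rests on dim spots. It fell to 0.25 without Card9-/- 6, and it was -0.07 and -0.09 on the 2 slides with both labels.

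Il1rap, the accessory chain, had the narrowest range of the tested brightest probes at day 0, where its membrane-form probe ran from 8.99 through 9.11 to 9.27 in the arrays labelled Card9-/- and from 8.79 through 9.17 to 9.33 in those labelled WT. Its difference of -0.04 had an interval from -0.22 to 0.15, which bounds the fold between 0.860 and 1.11. Its soluble-form probe differed by -0.03 at day 0. A further probe, A_52_P207374, was well above background in WT 4 alone, at 7.18, so that no difference between labels was read from it. At day 7 the brightest probe reads the soluble form and was well above background in 2 of 4 arrays of each label, with a difference of -0.06 (-0.65 to 0.54), which was 0.20 and -0.38 on the 2 slides with both labels. Il18r1, the IL-18 receptor, read 6.44, 4.50, 6.35 and 6.02 in Card9-/- 2, 2.1, 4 and 6 at day 7 and 5.35, 5.14, 5.91 and 5.18 in WT 1, 4, 5 and 6. Card9-/- 2.1, WT 1 and WT 4 were not well above background. Card9-/- 2.1 was the lowest of all arrays and the other Card9-/- arrays the highest. The difference was 0.44 (-0.60 to 1.47), and it rose to 0.88 without Card9-/- 2.1 and fell to 0.23 without Card9-/- 2. It was 1.26 and -0.64 on the 2 slides with both labels. At day 0 Il18r1 ran from 5.45 through 6.34 to 6.64 and from 5.51 through 6.31 to 7.08, with a difference of -0.12 (-0.70 to 0.46), and the epithelium list ran opposite to it (r = -0.83, rho = -0.91, 13 arrays).

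**Figure D4:**
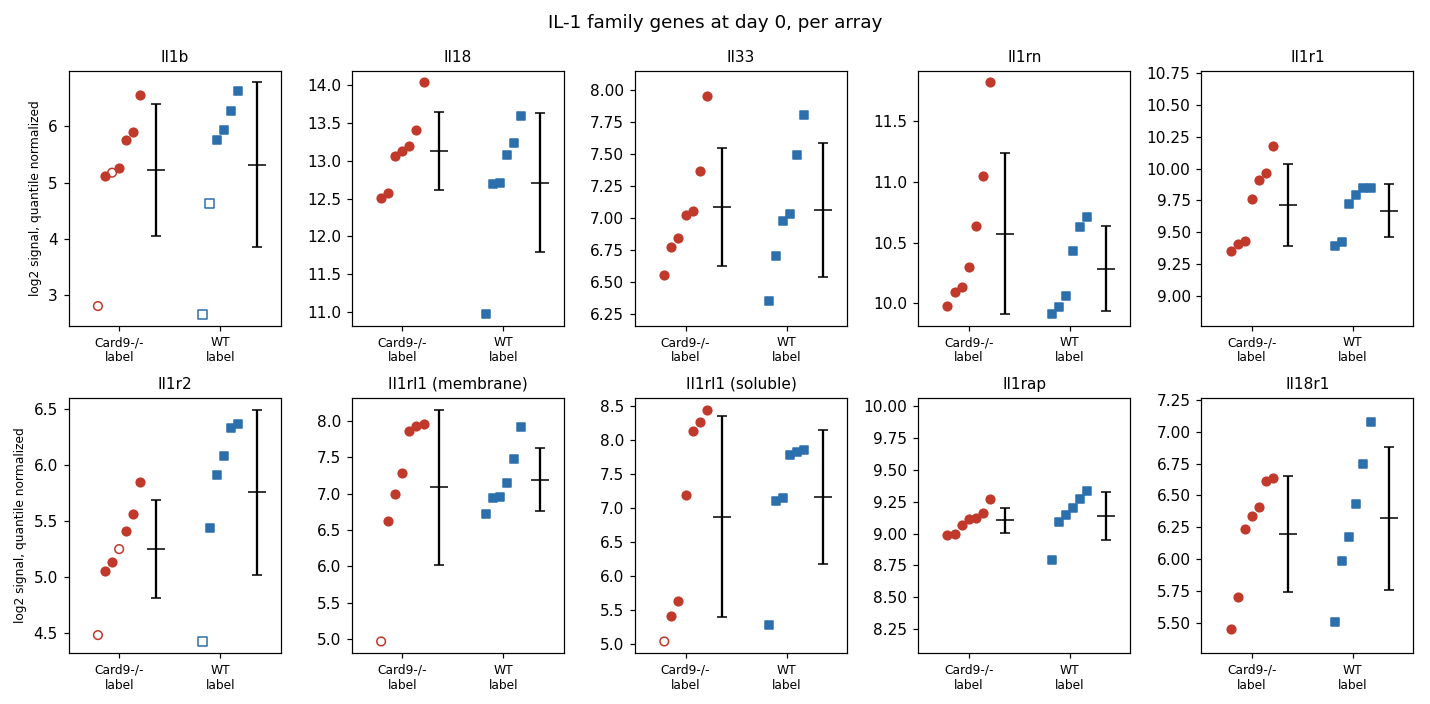
Quantile-normalized log2 signal at day 0 for the brightest probe of each tested member and both tested Il1rl1 probes. Each point is 1 array (7 labelled Card9-/-, 6 labelled WT), open points were not well above background, and bars are mean ± SD. All panels overlap, with 2 low arrays in Il1b, 1 in Il18, 1 in the membrane Il1rl1 form and 4 in the soluble form. Each panel has its own axis, and levels of different probes are not comparable.

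At day 0 several members moved together across arrays rather than with the label. Il1b and Il1r2 had r = 0.863 (rho = 0.791) over the 13 arrays, and Il1b had r = 0.738 with Il18r1 and 0.715 with Il1r1. Il18 ran opposite to the membrane form of Il1rl1, with r = -0.711 (rho = -0.791). Il1rn had r = -0.788 with that form but rho = -0.489, and Card9-/- 5 was both the highest array in Il1rn and the lowest in membrane Il1rl1. These are descriptions of arrays that share their tissue and normalization. At day 7 the pair Il1b and Il1r2 had r = 0.379 over 8 arrays.

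Macrophage markers moved with Il1b at day 0. Their summed signal had the highest correlation with Il1b among the 15 lists, at r = 0.85 and rho = 0.94, with Csf1r, the CSF-1 receptor, holding 59.3% of the sum in the median array. It ranged from 3170 to 11012 in the arrays labelled Card9-/- and from 2655 to 15824 in those labelled WT, with all 6 markers well above background on every array. WT 5, which had the lowest Il1b, had the lowest sum at 2655, and Card9-/- 7 had 3853. Card9-/- 5 had a lower sum than Card9-/- 7, at 3170, but a higher Il1b, at 5.18 against 2.80. Endothelium, ILC2 and Th2 and fibroblast lists had r between 0.75 and 0.78, and the eosinophil list had the lowest at -0.73. Il4, Il5 and Il13 of the ILC2 and Th2 markers and Epx of the eosinophil markers were well above background on 0 day 0 arrays. Card9-/- 7 also held a pancreas marker signal of 1612830 against at most 80862 on any other day 0 array. At day 7 Il1b had r = 0.14 with the macrophage list. The part of these cells and tissues in the Il1b levels was not tested.

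**Figure D5:**
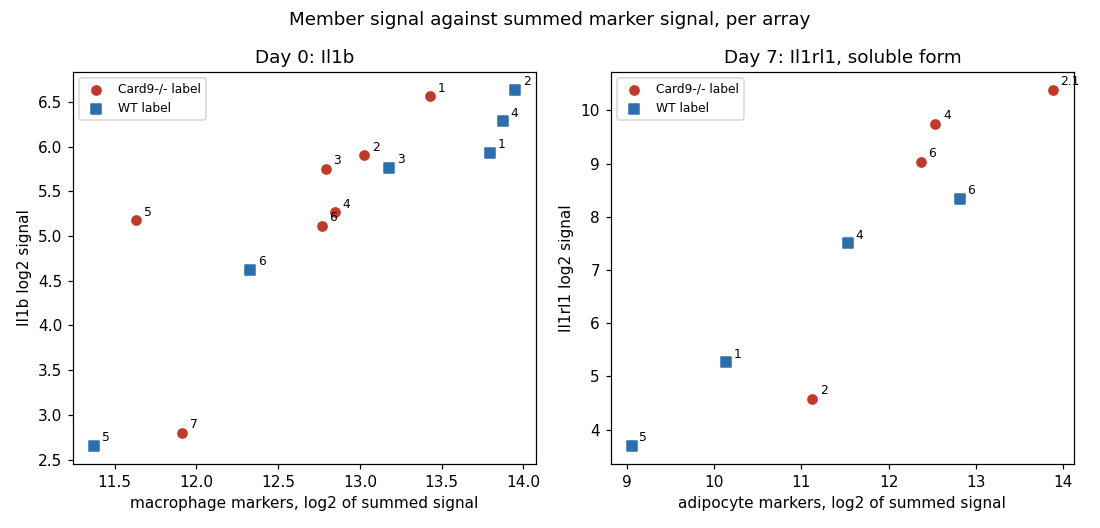
Il1b log2 signal against the log2 summed signal of 6 macrophage markers at day 0 (13 arrays), and soluble Il1rl1 log2 signal against that of 3 adipocyte markers at day 7 (8 arrays). Each point is 1 array with its replicate number, and each list is the one of 15 with the highest Pearson correlation, at r = 0.85 and r = 0.93.

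Whether the difference between labels differed between days was tested on the 23627 probes shared by both designs and detected at both days. These hold 8 member probes of 7 genes, and 0 passed, beside 0% of all (7.14% at an unadjusted p under 0.05, and 0 of the 8). The day 7 difference minus the day 0 difference was 2.53 (-0.63 to 5.68) for soluble Il1rl1, 1.05 (-0.48 to 2.57) for membrane Il1rl1, 0.92 (-0.18 to 2.03) for Il33 and -0.40 (-0.89 to 0.08) for Il1r1. Leaving out 1 array at a time moved soluble Il1rl1 between 1.69 (without WT 5) and 3.81 (without Card9-/- 2) and Il33 between 0.59 (without Card9-/- 6) and 1.28 (without Card9-/- 2.1). The adjusted p of the 8 probes ran from 0.748 to 0.995 (limma).

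The other genes of the pathway were described from lists of ligands, receptors and decoys, inflammasome genes, signalling genes and target genes, and 0 passed the adjusted threshold at either day. Of the inflammasome genes, 16 of 17 were tested, and 7 were higher at day 0 and 13 at day 7. Their median differences were -0.05 and 0.18, beside 0.02 and 0.00 over all probes. Casp1, the protease that matures IL-1β and IL-18, differed by 0.42 at day 7 (adjusted p = 0.913, limma), and Elane, a neutrophil protease, by 0.35. The other neutrophil protease genes of the list were well above background on 0 arrays of either day. At day 0 Casp8, a caspase that can also cleave IL-1β, differed by 0.20 and Nlrp1b, an inflammasome sensor with close paralogs, by -0.14.

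Among other receptors and decoys, 4 of 6 were tested on each day. Il18bp, the secreted inhibitor of IL-18, differed by 0.90 at day 7 (8.66 ± 0.71 against 7.75 ± 0.24, SD, n = 4 and 4, adjusted p = 0.913, limma), and Sigirr, an inhibitory receptor, by -0.05. At day 0 these lists gave Il1rl2, the IL-36 receptor, at -0.40 and Il18bp at 0.19. The other IL-1 family ligands had 1 of 6 tested at day 0 and 4 of 6 at day 7, none well above background on every array.

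Of the 17 signalling genes, 10 were higher at day 0 and 7 at day 7. Tab1, an activator of the kinase TAK1, had the largest day 0 difference at -0.27 (12.18 ± 0.08, n = 7, against 12.45 ± 0.08, n = 6, adjusted p = 0.154, limma), followed by Ikbkg, a subunit of the IKK complex, at 0.26. At day 7 Ikbkg differed by -0.43 and Irak2, a kinase recruited by Myd88, by 0.31. Of the 19 of 23 target genes tested, Areg, an epidermal growth factor receptor ligand, differed by 1.06 at day 0 (10.18 ± 0.59, n = 7, against 9.12 ± 0.47, n = 6, adjusted p = 0.389, limma) and Ccl20, a chemokine, by -0.45. At day 7 the monocyte chemokine Ccl2 differed by 0.998 and Nfkbiz, an NF-kB cofactor, by -0.44.

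The genes whose signal was most like that of a member over the arrays of a day were listed among probes well above background on every array. At day 0, Il1b was most like Clec7a, the beta-glucan receptor (r = 0.945, rho = 0.896, 13 arrays), and Il18 most like Esrrg, Lrmp and Anxa3 (r = 0.989, 0.985 and 0.982). Il33 was most like Il16 (r = 0.935) and Il1rn most like Apobec1 (r = 0.924). Soluble Il1rl1 was most like Pkn3 and Ereg (r = 0.938 and 0.934) and membrane Il1rl1 most like Lhfpl5 (r = 0.956). At day 7, over 8 arrays, soluble Il1rl1 was most like Daglb (r = 0.993), Gm9706 and Isg15, and membrane Il1rl1 most like Pla1a (r = 0.971) and Ccl2 (r = 0.967). Il33 was then most like Serpinb9 (r = 0.970), Il18 like Abcg1 (r = 0.971), Il1rn like Gmppa (r = 0.968) and Il1b like Grb14 (r = 0.980). Each ranked between 1 and 3 among 13015 or more candidates on few arrays, and it says nothing of shared control.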

How the data were processed

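Colon RNA of 21 samples was hybridized to 1-color Agilent arrays. The authors read the scanned images with Feature Extraction 10.7.3.1, and the intensity they deposited per spot is linear, with no normalization across arrays. A detection p-value against background was deposited beside it. For each design there is also a log2 table from the authors, quantile normalized per the methods, with medians of 6.62 to 6.63 (day 0) and 6.21 (day 7); it follows the unsubtracted median signal (rank correlation 1) and was used as an alternative. The methods name design 028005 alone.

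Here the processed signal was log2-transformed and quantile normalized within each day. Control and outlier spots were dropped and the spots of a probe averaged. Labels were compared by limma 3.58.1 (lmFit, eBayes; R 4.3.3) with Benjamini-Hochberg adjustment over all probes tested, and beside it by exact two-sided permutation over arrays (70 splits at day 7, 1716 at day 0). The code was tested on simulated data. Between 54.5% and 64.9% of spots at day 0 and 42.2% and 57.1% at day 7 were well above background, and no spot was saturated. The number of arrays and the dim spots limit the precision. Card9-/- 2 and 2.1 differed like other pairs of a label (SD ratio 0.939) and count as 2 samples. The day 0 arrays lie on 4 slides that each hold both labels, and the day 7 arrays on 6, of which 2 do. Marker and pathway lists used each gene's brightest probe, and marker sums are of linear normalized signal. Named genes are the members, Card9, and per pathway list the 2 with the largest difference among those well above background on every array; alike genes were ranked by Pearson r, and marker lists by 300 correlations in all. The members and lists were chosen with earlier results of these data known. Alternatives were the normalization, the background correction, the filter, slide, scan session and replicate number as terms, and leaving out arrays.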

Additional observations from a re-analysis of the deposited data

Results flagged for a closer look

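A sample stood far from the others of its label in 3 of the 40 sets of arrays examined (a member probe, a day and a label), and about 5% would do so by chance. At day 0, Il1b was 2.80 in the array labelled Card9-/- 7, where the next lowest was 5.12. Il18 was 10.96 in the array labelled WT 6, where the next lowest was 12.69. Soluble Il1rl1 was 5.28 in the array labelled WT 5, where the next lowest was 7.10.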

How the results depend on the processing

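The counts of members past the threshold were 0 at day 0, at day 7 and for the difference between days under every alternative run, and the smallest adjusted p of a member (limma) was 0.330 at day 0 (Il1r2), 0.763 at day 7 and 0.240 for the difference between days (Il33). Small differences changed sign. Il33 at day 0 was -0.0397 with 75th percentile normalization and -0.23 by its other probe. Il1rn at day 7 was 0.0141 in the deposited log2 table. Il1rap at day 7 was 0.52 and 0.14 by its other probes, which were well above background on 0 of 8 arrays and so give no direction, and its difference between days was 0.0775 with the 75th percentile and 0.0438 in the deposited table. Some alternatives were chosen after seeing the data: without the 3 arrays of slide 4 at day 0, Il18 was -0.17, Il33 -0.16, Il1rn -0.0198, membrane Il1rl1 0.56 and soluble Il1rl1 0.45, and without Card9-/- 2.1 and 6 at day 7, Il1rap was 0.32. The causes were not tested.

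The replicate numbers did not pair the samples (correlations of deviations from -0.02 to 0.37 at day 0, and 0.11 and 0.03 at day 7). With the replicate number as a block the counts were again 0. Il1b at day 0 was then 0.31, and it was also 0.31 without a block on leaving out Card9-/- 7, whose number no WT array shares. With the block, Il1rap at day 7 was 0.0257, and the differences between days of Il1b and Il1rap were -0.0169 and 0.12. With slide as a random block at day 7 the within-slide correlation was 0.128.

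Leaving out 1 array at a time gave day 0 ranges of -0.62 to 0.31 for Il1b, -0.12 to 0.17 for Il33, -0.0329 to 0.105 for Il1r1, -0.25 to 0.25 for membrane and -0.67 to 0.0179 for soluble Il1rl1, -0.10 to 0.00304 for Il1rap and -0.29 to 0.0292 for Il18r1. At day 7 they were -0.18 to 0.306 for Il1b (at most 0.304 with Card9-/- 2.1 kept), -0.23 to 0.17 for Il1rn and -0.23 to 0.0794 for Il1rap (0.0573 without Card9-/- 2.1), and for the difference between days -0.23 to 0.71 for Il1b and -0.19 to 0.15 for Il1rap (0.0916 without Card9-/- 2.1), -0.61 to -0.20 for Il1rn and 0.353 to 0.999 for Il18r1. The counts ranged from 0 to 0. Dim spots limit Il1a, Il1b and Il1r2 on both days, and Il1rap, Il18r1 and Il1rl1 mainly at day 7, each with at least 1 array not well above background.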
